A study of Homo sapiens with 9 samples.

Results

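The regions described here are the 290 sites at which CDK9 was found on the chromatin of A375 cells exposed to A771726, which are all peaks of the CDK9 list made from those cells. The 6 deposited lists of the study held 27469 peaks in all. A375 is an established human malignant melanoma line. For each condition, cells were treated for 24 h with DMSO, the solvent, with A771726 at 25 µM, or with A771726 plus nucleotides, for which the labels used here give no dose. Chromatin was precipitated with an antibody against CDK9 or against DDX21, and an input sample was taken under each treatment, so that 9 samples made up the series. Each antibody and treatment had 1 library. There is therefore no replicate error and no p-value. Every interval of a share below is an exact binomial (Clopper-Pearson) 95% interval that treats peaks as independent and covers counting error only. Intervals of another kind are named where they are given. The inputs have no peak list among the files used here.

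CDK9 is the kinase of P-TEFb, the complex that phosphorylates paused RNA polymerase II and the factors that hold it, and so lets it pass into productive elongation. P-TEFb is kept inactive in a particle built on the 7SK small nuclear RNA and is released from it when transcription is to be raised. DDX21 is a nucleolar RNA helicase that acts in ribosome production and also on genes transcribed by RNA polymerase II. A771726, also called teriflunomide, is the active form of leflunomide and inhibits dihydroorotate dehydrogenase, so that cells make less pyrimidine nucleotide. The lists were made to show where the 2 proteins lie under this treatment and when nucleotides are supplied.

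The members were selected on a readout, since a region is one of them because the authors' peak caller found it in this library. Their fold enrichment (a ratio of fragments over the summit to the local background) and −log10 q (the caller's significance after adjustment) are given as a description. Both are the authors' values and rank peaks within a list. Where values of the same site are given from several lists, they are set side by side only. Neither sizes from separate libraries nor ranks from lists of different length can show a change. Coordinates are hg19, as in the lists, counted from 1. No annotation of that build was used here, so regions are named by position and no gene, exon or promoter is assigned to them.

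The libraries were not on an equal footing. The CDK9 lists held 3462 peaks in DMSO and 3099 with nucleotides. The shortest peak was 50 bp with A771726, 128 bp in DMSO and 129 bp with nucleotides, and the median widths were 96, 186 and 186 bp. Of the 290 members, 96 were at least as wide as the shortest DMSO peak, a share of 33.1% (27.7 to 38.8). The lowest local background of a peak, worked out from the deposited values, was 0.521 fragments with A771726, 1.17 in DMSO and 1.24 with nucleotides. The median number of fragments over a summit was 15, 23 and 24 in the same order. The members covered 39205 bp of the genome together. What the shorter peaks and the lower background contribute to the overlaps and to the number of peaks per locus was not tested.

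Most members lay on sites that also had a CDK9 peak under the other treatments. Of the 290, 225 overlapped a DMSO peak by 1 bp or more, or 77.6% (72.3 to 82.3), and 222 met one from the list with nucleotides, or 76.6% (71.2 to 81.3). Between the longer lists themselves, 45.2% of DMSO peaks overlapped a peak with nucleotides and 50.6% of peaks with nucleotides overlapped a DMSO peak. Those shares run over whole lists of 3462 and 3099 peaks. No such share is given here for their strongest peaks alone, so the comparison is not of like with like. Both lists held a peak at 203 members, or 70.0% (64.4 to 75.2). A further 22 members had a peak in DMSO alone and 19 with nucleotides alone. The remaining 46, or 15.9% (11.9 to 20.6), had no CDK9 peak under another treatment. That share was 9.20% without 2 neighbouring loci of chromosome 2, 8.33% over members at least as wide as the shortest DMSO peak, and 44.8% when every list was reduced to its 290 strongest peaks. Overlap went with strength within the list. Among the 58 strongest members by −log10 q, 53 had a DMSO peak and 55 a peak with nucleotides. Among the 58 weakest, the numbers were 42 and 36.

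**Figure D1:**
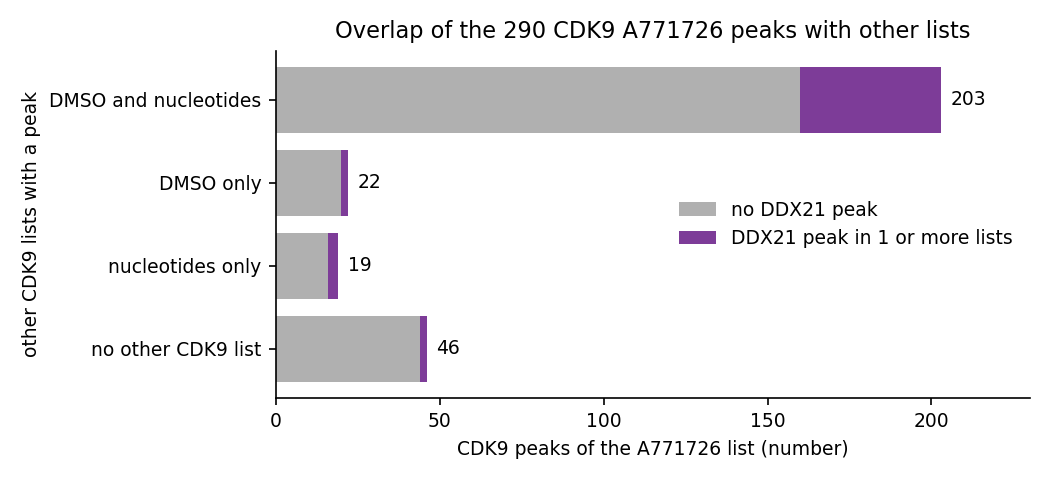
Number of CDK9 A771726 peaks (horizontal axis) by which other CDK9 lists held an overlapping peak (rows), with the members on a DDX21 peak of any list in purple. The row with both other lists holds 203 of the 290 members and 43 of the 50 members on a DDX21 peak.

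Members were mostly narrow stretches inside wider peaks of the other lists. Of the 225 members on a DMSO peak, 181 lay wholly inside the strongest DMSO peak they touched, or 80.4% (74.7 to 85.4), and that peak had a median of 4.41 times the member's width. The summits of the member and of that peak were a median of 64 bp apart, and 196 pairs were within 250 bp. With nucleotides, 183 of 222 members lay wholly inside, or 82.4% (76.8 to 87.2), the peak was a median of 4.89 times as wide, and the summits were 70.5 bp apart. The 225 members lay on 187 different DMSO peaks, of which 32 held 2 or more members and none over 4. The 222 lay on 178 peaks with nucleotides, of which 36 held 2 or more and none over 5.

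The DMSO peaks that members lay on came from the upper end of the DMSO list. The median rank of a member's strongest DMSO peak was 260 of 3462, and 132 of the 225 were among the first 346. Another 22 were beyond the middle of that list. In the list with nucleotides, the median rank was 204 of 3099, 141 of 222 were among the first 309, and 31 were beyond the middle. The first peak of both longer lists was the same site, chr9:22158994-22159393 in the A771726 list, which ranked 24 there. At the 203 members with a peak in both other lists, the median pileup at the member's own summit was 16 fragments with A771726. At the strongest peak that the member touched, it was 38 in DMSO and 43 with nucleotides. A wide peak of those lists was counted again for each member on it. These pileups were also divided by the lowest background of their own list. The median was then 32.5 (29.9 to 35.9) in DMSO, 30.7 (28.8 to 30.7) with the drug alone and 34.6 (32.2 to 36.2) when nucleotides were added. The intervals are order-statistic 95% intervals and treat the repeated values as independent. The shortest peaks of the 3 lists differ in length, as given above, and these heights are set side by side only.

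The strongest member was chr6:52860358-52860801, with a fold enrichment of 21.8 and a −log10 q of 58.3. It was 444 bp wide and had 57 fragments over its summit. The same site ranked 2 of the DMSO list, with a fold enrichment of 14.5, and 35 of the list with nucleotides, with 6.79. A DDX21 peak lay on it in DMSO and under no other treatment. The second, chr2:224902751-224904031, was the widest member at 1281 bp, with a fold enrichment of 20.1 and 39 fragments. It ranked 71 in DMSO and 18 with nucleotides, and the list of DDX21 with A771726 was the only DDX21 list with a peak there.

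The next members in rank were narrow. chr12:112704998-112705096 had a fold enrichment of 16.5, chr2:76672377-76672477 had 16.4 and chr22:42961096-42961188 had 14.8, over widths of 99, 101 and 93 bp. Each lay on a peak of both other CDK9 lists, at DMSO ranks 159, 179 and 180 and at ranks 1494, 430 and 1263 with nucleotides, and none had a DDX21 peak. The sixth, chr11:62609101-62609283, had the highest pileup of all members, 69 fragments, over a background of 11.6 fragments, which gave a fold enrichment of 5.55. It had a DDX21 peak in all 3 lists. chr11:65190118-65191317, at 1200 bp, and chr1:33899459-33899676 were also among the first 10, and ranked 6 and 20 in DMSO. The other 2 of the first 10, chr8:43094773-43094827 and chr8:43092889-43092945, overlapped no DMSO peak and ranked 10 and 4 with nucleotides. In all, 8 of the 10 had a DMSO peak, 10 had a peak with nucleotides and 5 had a DDX21 peak.

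The weakest members were close to the list's threshold. The lowest −log10 q values were 1.32 at chrX:114963505-114963563, 1.40 at chr2:224878030-224878096, 1.55 at chr2:224895150-224895233 and at chr12:63179805-63179928, and 1.58 at chr2:224889499-224889548. Of these 5 members, 3 had no peak in another CDK9 list, and they lay within 1 stretch of chromosome 2 that is described below. Peaks below the threshold are not listed, so no value just outside it can be given.

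The 46 members with no CDK9 peak under another treatment were weaker and narrower than those shared by all 3 CDK9 lists. Their median −log10 q was 3.84 and their median width 68.5 bp, against 5.10 and 110 bp at the 203 shared members. Between 8 and 21 fragments lay over their summits, with a median of 12. Most were close to a site of the other lists: the nearest DMSO peak was a median of 1341 bp away, 20 of the 46 were within 1 kb of one and 41 within 10 kb. The nearest peak with nucleotides was a median of 1782 bp away, and 33 of 46 were within 10 kb. A single stretch of chromosome 2 held 23 of them, and the other 23 were spread over 17 loci on 12 chromosomes. In loci of 2 or more members lay 37 of the 46, against 65.9% of all members. Outside that stretch 14 of 23 did, or 60.9% (38.5 to 80.3), next to 151 of all 250 members there, or 60.4% (54.0 to 66.5).

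**Figure D2:**
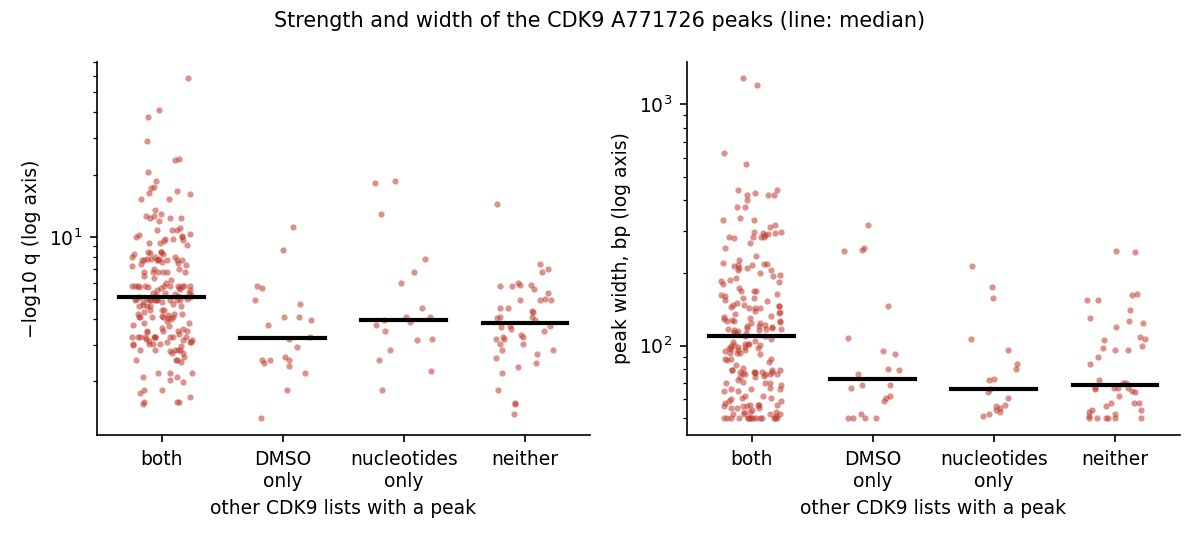
The −log10 q (left) and the width in bp (right) of each CDK9 A771726 peak, both on log axes, by which other CDK9 lists held a peak, with a line at the median. Members with a peak in both other lists have the highest medians, 5.10 and 110 bp, and the ranges of the 4 groups overlap.

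The strongest of the 46 stood alone. chr16:81995539-81995596 had a fold enrichment of 11.6, a −log10 q of 14.4 and 17 fragments over its summit, with an exact Poisson 95% interval of 9.90 to 27.2. It was 58 bp wide, and its local background was 0.547 fragments. The lowest background in the list was 0.521 and the median 1.66. Its nearest DMSO peak was 667741 bp away and its nearest peak with nucleotides 666803 bp away. It ranked 18 of the 290, and the next of the 46, chr2:224889151-224889216, ranked 69 with a −log10 q of 7.36. Of the 10 strongest, 5 lay in the stretch of chromosome 2. The remaining 4 were chr8:98450886-98451011, chr15:89164894-89164947, chr10:54076203-54076326 and chr14:23006017-23006080, with −log10 q values from 5.57 to 6.74. The last of these was 392755 bp from a DMSO peak, while the first 3 were 1470 to 4071 bp from one.

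Members often lay in groups of peaks close together. With gaps of 10 kb or less, the 290 members formed 146 loci, 99 of them of a single peak. The other 47 loci held 191 members, or 65.9% (60.1 to 71.3). By the same rule 46.2% of DMSO peaks and 47.5% of peaks with nucleotides were in loci of 2 or more. The share of members was lower in settings that also left fewer peaks, and the cause of that fall was not tested. Over members at least as wide as the shortest DMSO peak, 49 of 96 were in such loci, with an interval of 40.6 to 61.4%. With peaks within 1 kb merged, 70 of 193 were, with an interval of 29.5 to 43.5%. Merged shares of the other lists are not given here. Loci of 2 members numbered 21, those of 3 numbered 6, those of 4 numbered 10, and another 10 held 5 or more. Neighbours within a locus were a median of 330.5 bp apart, and 97 of the 144 gaps were at most 1 kb. Loci of 2 or more spanned a median of 1588 bp. Of single members, 9 of 99 had no other CDK9 list, and of members in loci 37 of 191 had none. Without the 2 neighbouring loci of chromosome 2 described below, the latter was 14 of 151, or 9.27% (5.16 to 15.1), next to 9.09% (4.24 to 16.6) of single members.

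At the 26 loci of 3 or more members, the A771726 list had more peaks but less covered sequence than the other CDK9 lists. That list also held shorter peaks, as given above, and their part in this difference was not tested. The loci were chosen by their A771726 peaks, so a higher number of those is in part set by the choice. They held 149 members, 113 DMSO peaks and 110 peaks with nucleotides. The members covered 22794 bp, the DMSO peaks 44991 bp and those with nucleotides 45354 bp within the same bounds. DMSO peaks covered more sequence than the members at 21 of the 26 loci and less at 5. The 2 neighbouring loci of chromosome 2 described below held 9 and 31 of the 149 members. They held 1 and 24 of the DMSO peaks, and 0 and 19 of the peaks with nucleotides. No DDX21 peak of any list lay in 18 of the 26, and no matching count was made for loci of the other CDK9 lists.

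**Figure D3:**
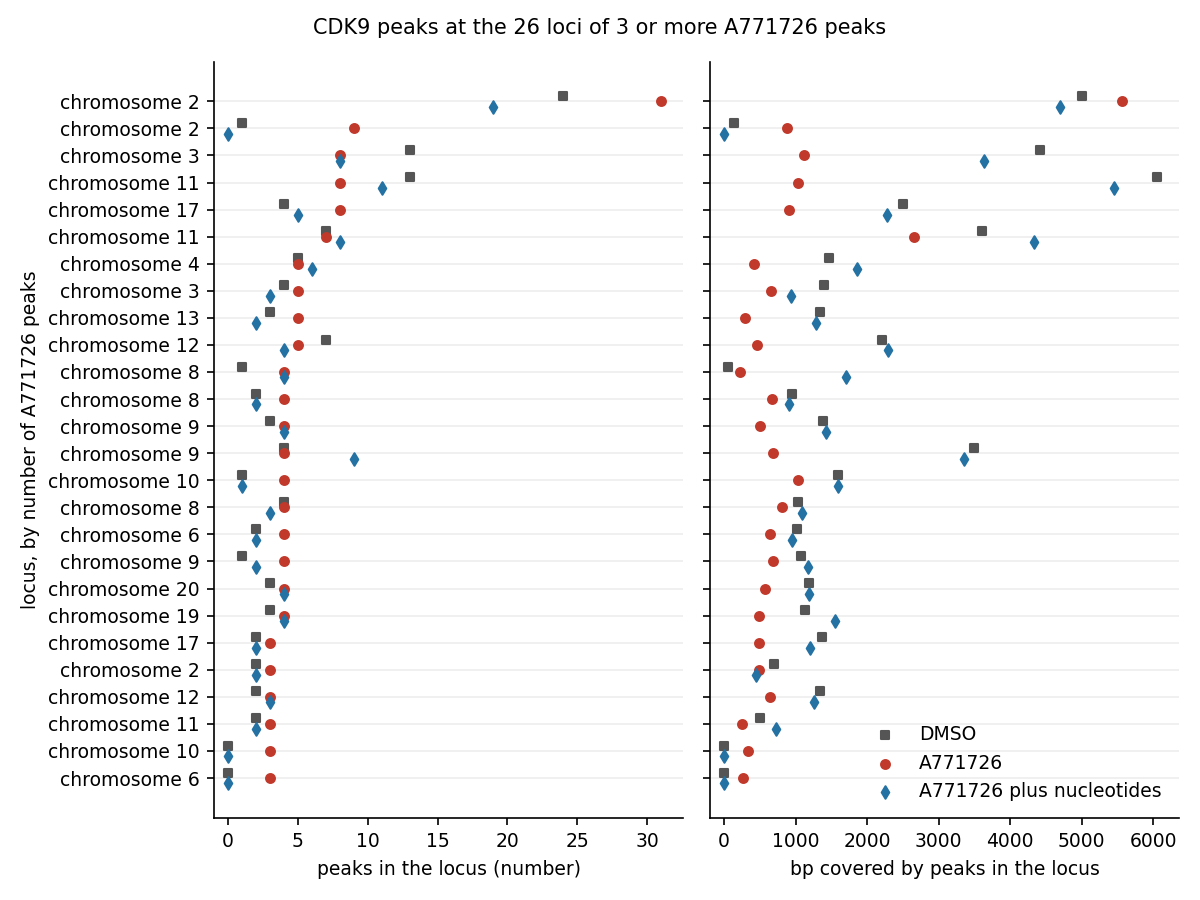
The number of CDK9 peaks (left) and the bp they covered (right) at the 26 loci of 3 or more A771726 peaks, 1 row per locus named by its chromosome, for DMSO (grey squares), A771726 (red circles) and A771726 plus nucleotides (blue diamonds). Red circles are often to the right on the left panel and mostly to the left of grey squares on the right panel, where DMSO covers more at 21 loci.

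Several of these loci were strong sites of all 3 lists. On chromosome 11, chr11:65265202-65274744 held 8 members, 13 DMSO peaks and 11 peaks with nucleotides, and its strongest peaks ranked 8 in DMSO and 3 with nucleotides. A second locus of that chromosome, chr11:65186734-65194825, held 7 members, 7 DMSO peaks and 8 peaks with nucleotides, at best ranks of 6 and 13. chr3:149293575-149311070 held 8, 13 and 8, with best ranks of 3 and 24. At chr17:57915306-57918151, 8 members lay on 4 DMSO peaks and 5 peaks with nucleotides. These members covered 914 bp where the DMSO peaks covered 2506 bp. One DMSO peak there was met by 4 members, another by 2 and the other two by 1 each.

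Peak numbers at loci of 4 or 5 members were above, equal to or below those of the other lists. At chr10:74033675-74035262, 4 members covered 1041 bp of a stretch of 1588 bp that was within 1 DMSO peak and within 1 peak with nucleotides. chr13:80510470-80512244 held 5 members on 3 DMSO peaks and 2 with nucleotides, and chr4:189322108-189330091 held 5 members, 5 DMSO peaks and 6 with nucleotides. At chr12:24189491-24196149 there were 5 members, 7 DMSO peaks and 4 with nucleotides, and at chr3:15688469-15696632 there were 5, 4 and 3. On chromosome 9, chr9:22142001-22148508 and chr9:22211696-22217137 each held 4 members and lay on either side of the first peak of the longer lists. Their strongest DMSO peaks ranked 5 and 18, and their strongest peaks with nucleotides ranked 9 and 5. Another locus of 4 on that chromosome was chr9:73215911-73217298, with 1 DMSO peak and 2 with nucleotides.

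Other loci of 4 were chr6:30711066-30712142 and chr8:22524277-22525313, each with 2 peaks in either other list, and chr19:35598281-35606551 and chr20:56589813-56593454, each with 3 DMSO peaks and 4 with nucleotides. chr8:29206974-29208975 held 4 members, 4 DMSO peaks and 3 with nucleotides. The loci of 3 members with peaks in both other lists were chr11:89340108-89340971, chr12:76423925-76425347, chr17:19091326-19093546 and chr2:70823281-70824237, each with 2 DMSO peaks. chr12:76423925-76425347 had 3 peaks with nucleotides and the other 3 loci had 2.

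The locus at chr8:43092889-43095974 differed from these in its DMSO coverage. Of its 4 members, chr8:43095908-43095974 alone met a DMSO peak, which covered 54 bp within the locus and ranked 2998. The members lay on peaks with nucleotides, of which the locus held 4, which covered 1701 bp and ranked as high as 2. DDX21 had no peak there in DMSO, 4 with A771726 and 2 with nucleotides. Local backgrounds at its members reached 9.95 fragments, against a median of 1.66 over all members. The part of that background in the result was not tested.

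At 2 of the 26 loci neither other list had a peak within the bounds. chr6:36646530-36647294 held 3 members with 11 to 14 fragments over each summit, and the highest of their −log10 q values was 4.37. The nearest DMSO peak was 997 bp from its last member, and the nearest peak with nucleotides was 2434441 bp from its first. chr10:54074411-54076326 held 3 members with 9 to 12 fragments, and the highest −log10 q was 5.81. DMSO and nucleotides peaks lay 140 and 128 bp from its first member, with 4 DMSO peaks and 1 with nucleotides within 10 kb of the locus. Both loci therefore lay beside DMSO peaks.

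The largest collection of members was on chromosome 2. That chromosome held 55 members, or 19.0% (14.6 to 24.0), against 6.79% of the DMSO list and 7.002% of the list with nucleotides. Of these, 40 lay in 2 neighbouring loci, chr2:224846418-224861148 with 9 members and chr2:224871598-224904659 with 31, separated by 10449 bp. The 40 members make up 13.8% of the list. Without them the chromosome held 15 members. Among them, 23 had no peak in another CDK9 list, 8 had a DMSO peak only, 4 a peak with nucleotides only and 5 had both.

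**Figure D4:**
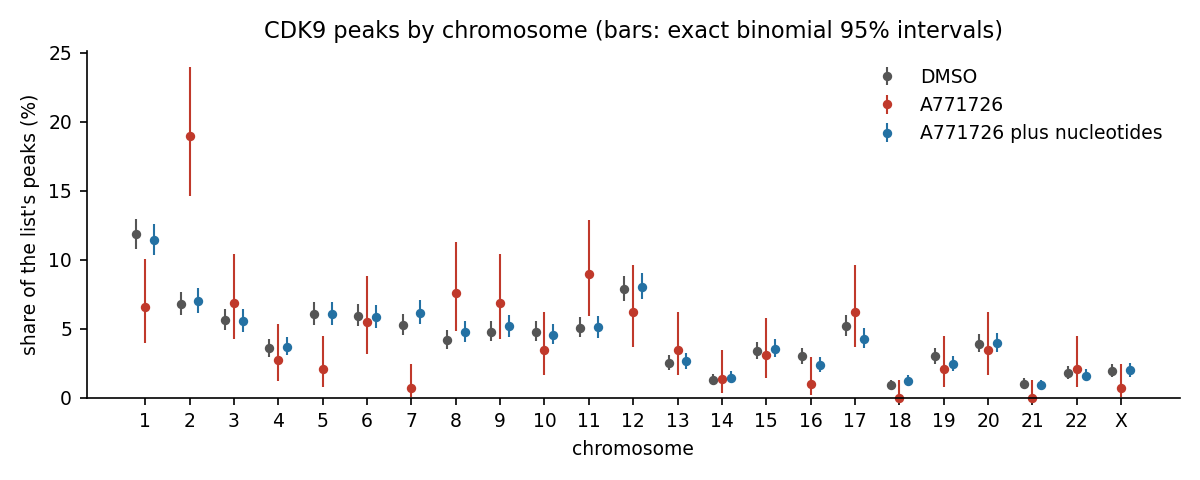
Share of each CDK9 list's peaks (vertical axis, percent) on each chromosome (horizontal axis) for DMSO (grey), A771726 (red) and A771726 plus nucleotides (blue), with exact binomial 95% intervals. Chromosome 2 holds 19.0% of the A771726 peaks and 6.79% of the DMSO peaks, and no A771726 peak lies on chromosome 18 or 21.

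The 2 loci differed from each other. In the first, the 9 members had 9 to 13 fragments over their summits, 1 of them lay on the locus's DMSO peak, which ranked 3332 of 3462, and the list with nucleotides had no peak. The second held 24 DMSO peaks and 19 peaks with nucleotides beside its 31 members. There the covered lengths were closer than the peak numbers, with 5566 bp for the members, 5010 bp for DMSO and 4702 bp with nucleotides. In this locus, unlike 21 of the 26, the members covered more sequence than the DMSO peaks. Its wide second-ranked member stood at 1 end, and its next strongest member, chr2:224901875-224902441, had a −log10 q of 10.8. The median width was 95.5 bp over the 40 members and 96 bp over the whole list, and 24 of 40 were narrower than the shortest DMSO peak, against 194 of all 290. DDX21 with A771726 had 1 peak in each locus, together on 3 members, and the other DDX21 lists had none.

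**Figure D5:**
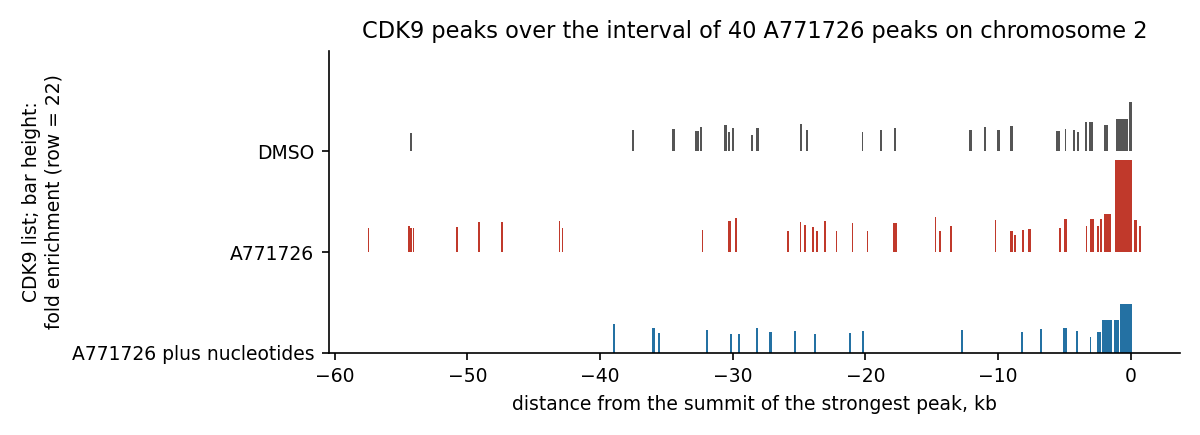
CDK9 peaks over the 2 neighbouring loci of chromosome 2, by distance in kb from the summit of the strongest A771726 peak, with 1 row per list and bar heights that give the authors' fold enrichment on a scale where a full row is 22, and with the narrowest peaks drawn wider than to scale so that they show. In the first locus, at the left, 9 A771726 peaks cover 875 of 14731 bp, DMSO has 1 peak and the list with nucleotides has none within the locus bounds. All 3 lists have their highest bar near 0.

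Elsewhere the members were spread over most chromosomes. Chromosome 11 held 26 members in 10 loci, chromosome 8 held 22 in 10, and chromosomes 3 and 9 held 20 each. Chromosome 1, with 11.8% of DMSO peaks, held 19 members, or 6.55% (3.99 to 10.0), each a locus of its own. Chromosome 7 held 2 members, or 0.690% (0.0836 to 2.47), where the DMSO list had 5.26%. Chromosomes 18, 21 and Y and the mitochondrial genome held none, and a count of 0 of 290 leaves room for a share of up to 1.26% at the upper bound of the interval.

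A minority of members lay on DDX21 peaks. Of the 290, 50 overlapped a DDX21 peak of any list, or 17.2% (13.1 to 22.1), which is near the 18.6% of DMSO CDK9 peaks and the 15.6% of CDK9 peaks with nucleotides that did so. By list, 41 members had a DDX21 peak in DMSO, 45 with A771726 and 39 with nucleotides. All 3 DDX21 lists had a peak at 36 members, and 34 had a peak in all 5 other lists. In contrast, 44 members had a peak in no other list of either antibody. Apart from the share over any DDX21 list, these counts were not worked out for the other CDK9 lists. They describe the members only. Members on a DDX21 peak were wider, with a median of 132 bp against 89 bp for the others, and had more fragments over the summit, with medians of 23 and 14. They also lay over a higher local background, at a median of 2.05 against 1.60 fragments.

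Most members on a DDX21 peak were shared by all CDK9 lists, as were most members of any kind. DDX21 overlap was found at 43 of the 203 members with both other CDK9 lists, or 21.2% (15.8 to 27.5). This is near the 17.2% (13.1 to 22.1) of all members. It was found at 2 of 22 with DMSO alone, or 9.09% (1.12 to 29.2), and at 3 of 19 with nucleotides alone, or 15.8% (3.38 to 39.6). Of the 46 with neither, 2 had it, or 4.35% (0.531 to 14.8). One of those last 2, chr9:35657774-35657935, had a DDX21 peak in all 3 lists and 19 fragments over its summit, with no DMSO CDK9 peak within 10 kb. Of single members, 29 of 99 had a DDX21 peak, or 29.3% (20.6 to 39.3), and of members in loci 21 of 191, or 11.0% (6.94 to 16.3). This split was not worked out for the DMSO and nucleotides CDK9 lists. Members of a locus can lie on the same site, so they are not independent. The 10 strongest members with a DDX21 peak took in 5 of the first 10 named above, chr8:43095908-43095974, chr10:103124596-103124694 with 52 fragments over a background of 9.12, chr11:65266376-65266671 with a fold enrichment of 9.78, and a pair of chromosome 17 given below. The DDX21 peaks concerned were not the strongest of their lists, at median ranks of 4074 of 8321 in DMSO, 3100 of 4375 with A771726 and 4865 of 7922 with nucleotides.

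Members with DDX21 in all 3 lists were most often on chromosomes 1 and 17. Of these 36, 16 were on chromosome 1 and 8 on chromosome 17. They were 16 of the 19 members of chromosome 1, all single peaks, and 8 of the 18 members of chromosome 17. Of the latter 8, 3 lay in the locus chr17:19091326-19093546. The chromosomes of DDX21 peaks, and of other CDK9 peaks on them, were not counted for comparison. On chromosome 17 the strongest by −log10 q were chr17:19091326-19091619 and chr17:19093298-19093415, with fold enrichments of 7.58 and 10.4 and 38 and 27 fragments over the summit. On chromosome 1 the strongest was chr1:148604923-148605040, with a fold enrichment of 8.62, followed by chr1:149223930-149224097, with 5.58. The member with the highest local background, chr1:16840536-16840715, was also among them, with 42 fragments over a background of 12.4. As a group the 36 had a median background of 3.32 fragments, against 1.66 over all members. What the higher background contributes to their being found with both antibodies was not tested.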

How the data were processed

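ChIP-seq of A375 cells gave 1 peak list per antibody and treatment, so peaks belong to single libraries. The submitters' processing notes name Bowtie, MACS2 2.0 and hg19, with no settings, order or control. For each peak the deposited lists give a fold enrichment (a ratio), −log10 of the p-value and of the q-value, a summit offset and a score derived from −log10 q, as the authors' caller wrote them. Fold and −log10 values were used only to describe and rank peaks, and the score was not used. The depth of the libraries is unknown.

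Peaks were called shared at an overlap of 1 bp or more, and loci were runs with gaps of 10 kb or less. Whole fragment numbers over summits and local backgrounds were worked out by taking fold as (pileup + 1)/(background + 1) and −log10 p as a Poisson tail. A whole number was found for 100% of peaks in the 3 CDK9 lists, to a tolerance of 0.001 in −log10 p. Overlap, locus and pileup steps were tested on simulated data. Python 3.11.15, numpy 2.4.6, pandas 2.3.3, scipy 1.17.1 and matplotlib 3.10.9 were used.

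Named regions were the 10 members highest by −log10 q, the loci of 3 or more, the 10 highest with no other CDK9 list, the highest with a DDX21 peak, and the 5 lowest. Members, lists and alternatives were chosen with earlier results of these data known, and the 2 chromosome 2 loci, the 58 strongest and weakest members, the nesting of peaks and the chromosomes singled out were chosen after their values were seen. Shares near transcription starts, gene lists and sequence content were intended but not computed, because the gene tables at hand are of GRCh38 and no genome of the peaks' build was used here.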

Additional observations from a re-analysis of the deposited data

How the results depend on the processing

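Alternatives numbered 54 and covered 5 results on the members and 3 median heights; 28 stayed within the main 95% interval or within 1.5 times the main count and 26 did not. The settings by peak width and without the 2 neighbouring loci of chromosome 2 were added after seeing the data. The shares that follow are, in order, those with a DMSO peak, with a nucleotides peak, with neither and with a DDX21 peak, of which the main values were 77.6%, 76.6%, 15.9% and 17.2%. With the top 290 peaks of every list they were 41.7%, 47.6%, 44.8% and 0%, where the longer lists lose most of their peaks by construction. With peaks within 1 kb merged they were 83.9%, 82.9%, 10.4% and 23.8%. Over members at least as wide as the shortest DMSO peak they were 88.5%, 86.5%, 8.33% and 27.1%. Leaving out the 2 neighbouring loci of chromosome 2 gave 84.8%, 85.2% and 9.20% for the first 3, and leaving out the larger of them alone gave 82.2% with a nucleotides peak. Summits within 250 bp gave 72.1% with DMSO and 70.0% with nucleotides, and a −log10 q of at least 5 gave 24.4% with DDX21. Members in loci of 2 or more were 191 of 290 in the main setting and 91 of 290 when 5 or more peaks were asked for. They were 65 of 127 at a −log10 q of at least 5, 70 of 193 after merging and 49 of 96 at the greater width. These settings ask for larger loci or leave fewer peaks by construction, and the shares fell as well as the counts. For members on the DMSO peaks of the highest decile, median heights were 31.7 with A771726, 42.7 in DMSO and 41.8 with nucleotides. That decile was taken by the DMSO −log10 q, so a greater height in DMSO is in part set by the choice. The cause of the other changes was not tested. No paired analysis was possible because each group has 1 library and no result comes from a test. For the same reason no replicate could be left out. The windows around transcription starts were not run, for want of an annotation of the build of the peaks. The members with no other CDK9 list rest on 8 to 21 fragments each, and 11 of the 46 had a −log10 q of at least 5.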
